A study of Caenorhabditis elegans with 22 samples.

Results

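Of the 250 microRNA hairpins counted in these Caenorhabditis elegans small RNA libraries, 107 carry a late name, mir-1000 or above, and are described here. They were taken by number alone, except that 14 late-numbered hairpins were left out (mir-1018, mir-1020, mir-1022, mir-1817, mir-1829b, mir-1830, mir-1832a, mir-2208a, mir-2208b, mir-2209a, mir-2220, mir-4807, mir-4813 and mir-8199). The remaining 129 hairpins, numbered below 1000 and including let-7, lin-4 and lsy-6, serve as the comparison. The 14 left-out hairpins all passed the low-count filter, and 14 of 14 were called for age in the test described below. Between the compounds 7 of 14 were called. Counts of changed hairpins among the 107, by age and by compound, are therefore lowered by that choice.

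The 22 libraries came from whole hermaphrodites of the wild-type laboratory strain N2. Worms exposed to rotenone at 0.039441 µg/ml were sampled at day 1, 5, 10 and 20 (3, 3, 3 and 2 libraries), and worms exposed to 2-deoxyglucose, at a dose the labels do not give, at the same ages with the same numbers of libraries. Rotenone blocks complex I of the mitochondrial respiratory chain, and 2-deoxyglucose is a glucose analogue that impairs glycolysis. No untreated group is analysed here, and the series title names DMSO in the place where the sample labels name 2-deoxyglucose, so the second group is called 2-deoxyglucose as its samples are labelled. The labels do not state whether replicate libraries derive from separate cultures. Each p-value therefore measures only how far these libraries vary, which may be technical. In whole worms, fewer cells of a type and less RNA per cell cannot be told apart.

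A microRNA is cut from a hairpin precursor, in most cases by Drosha with its partner Pasha in the nucleus and then by Dicer in the cytoplasm, and the mature strand, held by an Argonaute protein, lowers the output of messenger RNAs that pair with its seed. In a mirtron the hairpin is a short spliced intron and the splicing machinery takes the place of Drosha. MicroRNA names are given out in the order of registration, so the low worm numbers hold the abundant microRNAs found by early cloning, and numbers from 1000 upward came with deep sequencing. Here a count is assigned to a hairpin, not to an arm, and levels are compared between hairpins without dividing by length, since the read is a mature strand of similar length for each.

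Nearly all late hairpins were detected at least once in the series, but they were scarce. At least 1 count was found for 99 of the 107 (92.5%), close to the 119 of 129 (92.2%) numbered below 1000. They gave 21069 of the 28518880 counts of the series, or 0.0739%, while the hairpins numbered below 1000 gave 99.84%. The median late hairpin had 11 counts over all 22 libraries, which is 0.386 per 1000000 counts, against a median of 7851 counts below 1000. Presence in every library separated the sets in the same way, with 17 late hairpins (15.9%) against 107 hairpins below 1000 (82.9%). Only 4 late hairpins (3.74%) reached 1000 counts, against 92 (71.3%) below 1000. The 14 left-out late hairpins were less scarce. They gave 24774 counts (0.0869%), more than the 107 together, with a median of 853.5, and 7 of them reached 1000 counts. The scarcity given here is therefore that of the 107 after that choice.

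**Figure D1:**
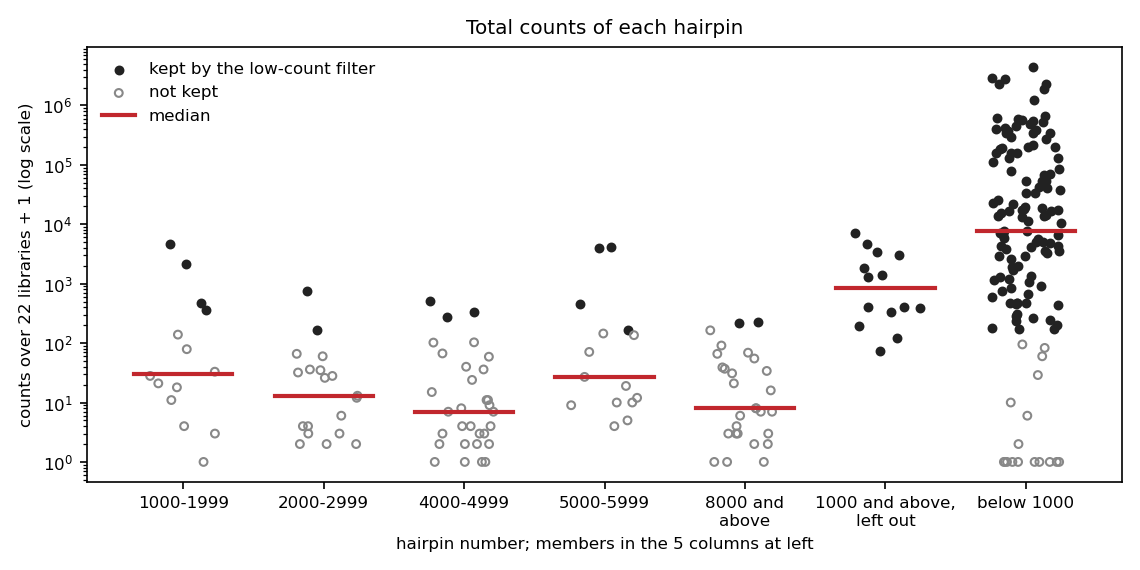
Total counts of each hairpin over the 22 libraries plus 1, on a log axis, by number band, with the 14 left-out hairpins and those numbered below 1000 at right. Filled points passed the low-count filter, open points did not, and bars are medians. The medians of the 5 late bands lie between 6 and 29.5 counts, against 7851 below 1000.

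Scarcity held in every number band. The 14 hairpins from mir-1000 to mir-1999 had a median of 29.5 counts, the 19 from mir-2000 to mir-2999 a median of 12, and the 31 from mir-4000 to mir-4999 a median of 6. The 15 from mir-5000 to mir-5999 had a median of 26 counts, and the 28 from mir-8000 upward a median of 7. The medians therefore did not fall steadily with number. The counts were concentrated in a few hairpins: mir-1820 alone held 22.17% of the late counts, the top 3 held 60.44% and the top 10 held 84.37%. By contrast, 44 of the 107 had 1 to 10 counts in all, 34 had 11 to 99, and 21 had 100 or more.

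No count was found for 8 hairpins, mir-1833, mir-4921, mir-4922-2, mir-4927, mir-4930, mir-8187, mir-8188 and mir-8191. A count of 0 over all libraries allows a level of up to 0.105 per 1000000 counts (3 counts), which covers counting error only. A further 9 were seen in 1 library only. By group, 33 hairpins were seen in all 8 groups, 14 in 7 groups and 17 in 2 groups. mir-1019, a mirtron in an intron of dyf-5, a kinase gene needed for sensory cilia, gave 3 counts in the whole series, 2 at day 10 and 1 at day 20.

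How many late hairpins are seen in a library depends on its depth. Library totals lay between 664900 and 2233973 counts, and 43 to 61 late hairpins were seen per library (median 48.5). At the smallest library's depth the expected number was 35.4 to 45 (median 41.7), and with at least 3 counts asked for it was 19 to 39 (median 27). The rotenone group of day 1 had 55 ± 7.94 hairpins per library and the 2-deoxyglucose group of day 1 had 53 ± 4.36 (SD, n = 3 each). At equal depth these became 41.8 ± 3.10 in rotenone worms and 43.3 ± 1.39 in 2-deoxyglucose worms. Over all 8 groups the equal-depth means stayed between 38.3 ± 2.56 (rotenone, day 5) and 43.4 ± 1.20 (2-deoxyglucose, day 20, n = 2). The libraries of these 2 groups, picked as the lowest and highest means and unlike in both age and compound, did not overlap. They held 35.4, 40.1 and 39.5 hairpins in rotenone worms of day 5 and 44.2 and 42.5 in 2-deoxyglucose worms of day 20. Libraries of many other pairs of groups overlapped.

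**Figure D2:**
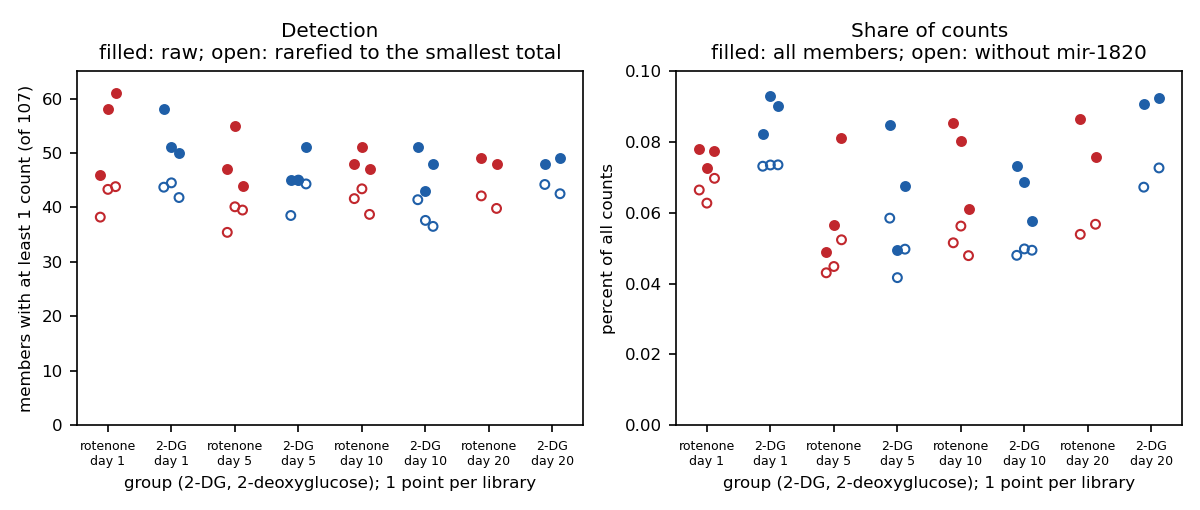
Left, late hairpins with at least 1 count in each library (filled) and expected at the smallest library's depth (open), by group. Right, their percent of all counts with (filled) and without (open) mir-1820. At equal depth the libraries lie between 35.4 and 45 hairpins in every group.

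The share of counts taken by late hairpins lay between 0.0490% and 0.0931% of a library. At day 1 it was 0.0761% ± 0.00289 in rotenone worms and 0.0885% ± 0.00559 in 2-deoxyglucose worms (SD, n = 3 each). At day 5 it was 0.0623% ± 0.0168 in rotenone worms and 0.0674% ± 0.0177 in 2-deoxyglucose worms (n = 3 each). At day 10 it was 0.0756% ± 0.0128 in rotenone worms and 0.0666% ± 0.00799 in 2-deoxyglucose worms (n = 3 each), and at day 20 it was 0.0812% ± 0.00744 in rotenone worms and 0.0917% ± 0.00115 in 2-deoxyglucose worms (n = 2 each). The spread at day 5 was narrower without mir-1820. With that hairpin left out, the day 5 means were 0.0467% ± 0.00495 in rotenone worms and 0.04995% ± 0.00841 in 2-deoxyglucose worms, below the day 1 means of 0.0663% ± 0.00351 in rotenone worms and 0.0734% ± 0.000215 in 2-deoxyglucose worms. Day 1 and day 5 libraries did not overlap in this measure in either compound, while with mir-1820 included they did overlap in both. The share uses plain totals. TMM factors were 1.06 to 1.17 at day 1 and 0.833 to 0.988 at day 5, so the gap would be smaller on TMM-scaled sizes. The share was not tested because the hairpins were chosen with earlier results known.

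By the Ensembl annotation of WBcel235, 103 of the 107 matched 1 annotated hairpin. Of these, 35 (34%) lie in an intron of a protein-coding gene on the same strand, against 25 of 128 (19.5%) numbered below 1000. Another 12 (11.7%) lie in an intron on the opposite strand, 5 overlap an exon, and 51 (49.5%) lie in no protein-coding gene, against 81 (63.3%) below 1000. The annotated late hairpins are also shorter, with a median of 67 bases against 97. Intronic hairpins on the same strand had a median of 33 counts and those outside protein-coding genes a median of 11. The hosts include pash-1, which encodes Drosha's partner and holds mir-1828 (27 counts), and prp-6, which encodes a splicing factor and holds mir-5552 (144 counts). On chromosome X, 8 of the late hairpins lie within the non-coding gene Y59E1B.1, which also holds the left-out neighbours mir-2220 and mir-4807. The most abundant of the 8 was mir-4810a with 39 counts, and mir-4921 had none.

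The 4 hairpins above 1000 counts held 70.77% of the late counts. mir-1820 (chromosome IV, 7767461 to 7767567, plus strand, in no protein-coding gene) had 4670 counts and varied 5.06-fold between libraries, 66.8 to 338 CPM (counts per 1000000, with libraries scaled by TMM, the trimmed mean of M values). Next came mir-5592-2, which is on chromosome X at 13759247 to 13759310 on the plus strand, in an intron of aakb-1, a gene for a beta subunit of the energy sensor AMPK. It had 4084 counts, and its partner mir-5592-1 had 3980. The partner lies at 13759245 to 13759308 on the opposite strand, so the same stretch of DNA is annotated as a hairpin on both strands. mir-1829c had 2177 counts and lies on chromosome X at 15236362 to 15236423, minus strand, in an intron of piki-1, a class II phosphoinositide 3-kinase.

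By the fold between highest and lowest CPM, the mir-5592 pair varied least among the 15 late hairpins that could be tested. That range includes counting error, which is larger for the scarcer hairpins. mir-5592-2 stayed between 97.1 and 192.9 CPM in the 22 libraries, and mir-5592-1 between 109.4 and 169.8 CPM. Their counts tracked one another with a ratio of 0.819 to 1.22 (median 1.03), and mir-5592-2 was the higher in 13 of the 22 libraries. How reads that fit both strands' hairpins were shared out is not given in the sources used here, so their separate values are uncertain. In the main fit, with TMM scaling, neither hairpin passed any test of age or compound. This depended on the scaling. With total counts, 8 of the 15 were called lower at day 10 in rotenone worms, and those 8 include this pair in whole or in part. mir-5592-2 averaged 135.4 ± 14.5 CPM in rotenone worms of day 20 against 175.2 ± 25.1 CPM in 2-deoxyglucose worms of day 20 (SD, n = 2 each), a log2 difference of -0.37 with a 95% interval of -0.79 to 0.04.

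Tests of age and compound were possible for the 15 late hairpins (14%) that passed the low-count filter, against 112 of 129 (86.8%) below 1000. These 15 had 168 or more counts each and 89.36% of the late counts. mir-2210 and mir-5545 (168 each) and mir-8201 (213) lay just inside the filter, and mir-8198 (163), mir-5552 (144) and mir-1821 (138) just outside. Calls are edgeR quasi-likelihood tests with Benjamini-Hochberg adjustment over all 141 hairpins tested. Estimated spread between libraries of a group, beyond counting error, was alike, with a median coefficient of variation of 13.5% for the 15 and 13.3% for all 141. It comes from the fit without lane and may be technical in part or whole.

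The test of any age difference, over both compounds, called 8 of the 15, against a background of 85.8% of the 141 hairpins tested. At least 1 of the 6 single contrasts with day 1 called 11 of the 15 (background 88.7%), the 8 together with mir-1820, mir-1822 and mir-4937, described further on. The 8 include mir-8201, higher at all later ages, and mir-5545, called higher at day 5 or day 10 but not at day 20. Lower in older worms were mir-4936, mir-2212 and mir-8196a. mir-2210 was called lower only at day 10 in rotenone worms and at day 20 in 2-deoxyglucose worms. The last of the 8, mir-1829a and mir-1829c, were lower at day 5 or day 10 but not at day 20. In rotenone worms of day 5, 5 of the 15 were called (background 45.4%), 2 higher (24.8%) and 3 lower (20.6%), where each background is the percent of the 141 called in the same way. In 2-deoxyglucose worms of day 5 it was also 5 (44.7%), 1 higher (22.7%) and 4 lower (22%). At day 10, 8 were called in rotenone worms (55.3%), 5 higher (29.1%) and 3 lower (26.2%), and 7 in 2-deoxyglucose worms (66%), 2 higher (31.2%) and 5 lower (34.8%). At day 20, 3 were called in rotenone worms (63.8%), 2 higher (34%) and 1 lower (29.8%), and 4 in 2-deoxyglucose worms (62.4%), 1 higher (28.4%) and 3 lower (34%). The median log2 change of the 15 at day 20 was -0.11 in rotenone worms and 0.16 in 2-deoxyglucose worms, beside medians over all 141 of -0.03 in rotenone worms and -0.09 in 2-deoxyglucose worms.

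The split of calls by direction depended on the scaling. Scaled by total counts, the calls in rotenone worms were 2 higher and 8 lower at day 10, and 2 higher and 6 lower at day 5. In 2-deoxyglucose worms of day 20 they were 3 higher and 3 lower with DESeq2 size factors, and 6 higher and 3 lower when TMM was computed without the 5 most abundant hairpins and without the mir-35 family. Scaling by total counts lowered the median of all 141 by 0.29 on the log2 scale for day 5 against day 1 in rotenone worms, the largest shift. At day 10 in rotenone worms that shift was -0.18. The shares of all 141 called under these scalings are not given here, so the splits are not read as particular to late hairpins. No called change reversed its direction in any scaling.

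**Figure D3:**
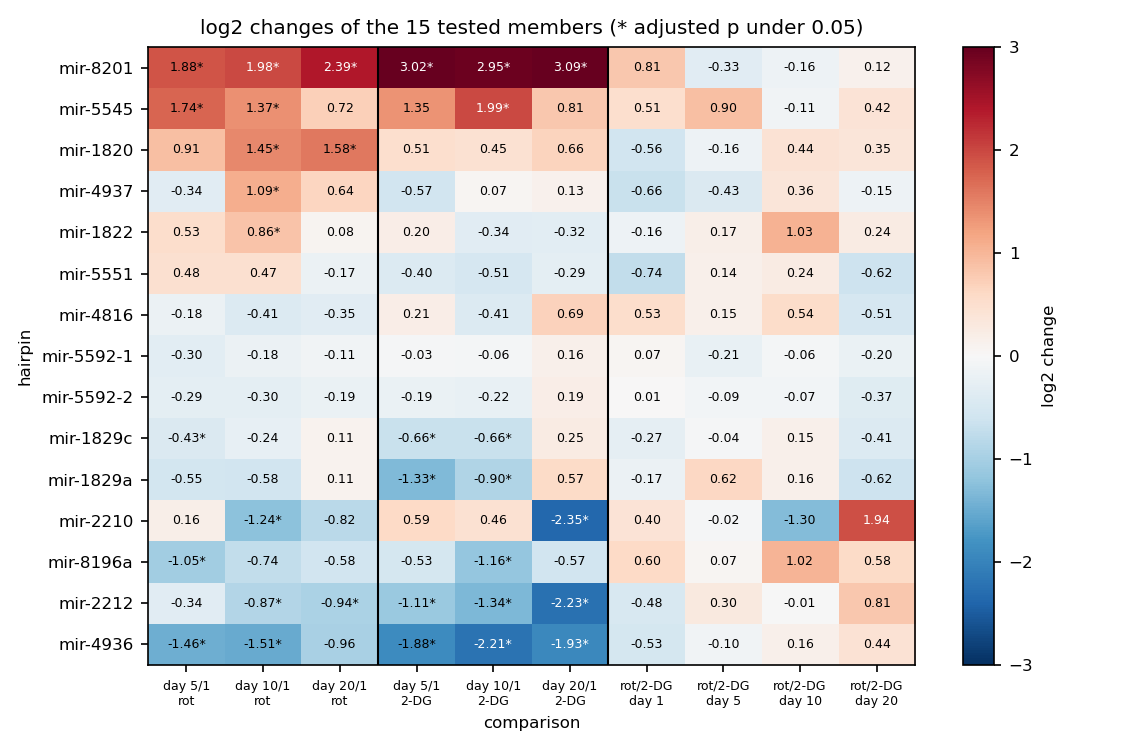
Fitted log2 changes of the 15 tested late hairpins: later day against day 1 in rotenone worms (left), the same in 2-deoxyglucose worms (middle) and rotenone against 2-deoxyglucose at each age (right). Red is higher, blue is lower, and an asterisk marks an adjusted p under 0.05. mir-8201 is marked in all 6 age columns, and the 4 compound columns hold no mark.

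mir-8201 had the largest age change. This hairpin lies on chromosome IV at 6294579 to 6294635, plus strand, in an intron of hil-2, which encodes a linker histone. The rotenone libraries held 0.811, 2.47 and 3.08 CPM at day 1, 9.14, 8.60 and 8.56 CPM at day 5, 9.19, 13.3 and 5.84 CPM at day 10, and 11.1 and 14.04 CPM at day 20. The 2-deoxyglucose libraries held 1.38, 0.909 and 1.42 CPM at day 1, 13.9, 8.23 and 9.69 CPM at day 5, 10.4, 7.76 and 12.5 CPM at day 10, and 11.1 and 12.01 CPM at day 20. Every library from day 5 onward was above every library of day 1, in both compounds.

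The log2 rise of mir-8201 over day 1 in rotenone worms was 1.88 ± 0.39 at day 5, 1.98 ± 0.41 at day 10 and 2.39 ± 0.41 at day 20 (± SE, adjusted p = 4.51e-04, 2.97e-04 and 1.69e-05, edgeR). The 2-deoxyglucose rise was 3.02 ± 0.47, 2.95 ± 0.45 and 3.09 ± 0.49 at the same ages (edgeR adjusted p = 1.38e-05, 5.33e-06 and 8.66e-06). The age change did not pass the test of a difference between compounds (adjusted p = 0.592). These 6 calls stood in all alternatives tried. The day 1 levels rest on few reads, 12 counts in rotenone worms and 6 in 2-deoxyglucose worms. No day 1 library held more than 7 counts, below the filter's minimum count of 10. mir-8201 therefore entered the test only through the later ages, where it was high.

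mir-5545, on chromosome I at 11885596 to 11885705, plus strand, lies in an intron of dnj-27, a gene for a DnaJ protein of the endoplasmic reticulum. In rotenone worms it averaged 2.90 ± 1.33 CPM at day 1, 10.7 ± 0.888 CPM at day 5, 8.13 ± 1.20 CPM at day 10 and 5.37 ± 4.45 CPM at day 20 (SD, n = 3, 3, 3 and 2). In 2-deoxyglucose worms the means were 2.25 ± 1.14, 5.87 ± 2.13, 9.08 ± 1.83 and 3.56 ± 3.46 CPM at the same ages. All day 1 libraries lay at 4.40 CPM or less, too low for the filter, so mir-5545 too entered the test only through later ages. The rise was called at day 5 and day 10 in rotenone worms (log2 1.74 ± 0.43 and 1.37 ± 0.48, edgeR adjusted p = 0.00207 and 0.0212) and at day 10 in 2-deoxyglucose worms (1.99 ± 0.51, edgeR adjusted p = 0.00178). Day 20 was not called in either compound, and its 2 libraries differed widely, with 8.51 and 2.22 CPM in rotenone worms and 1.11 and 6.003 CPM in 2-deoxyglucose worms. The day 10 calls ended with sequencing lane as a factor (edgeR adjusted p = 0.115 in rotenone worms and 0.0553 in 2-deoxyglucose worms), and in rotenone worms also without the first or second day 1 library or the second day 10 library (0.0522 to 0.0722).

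**Figure D4:**
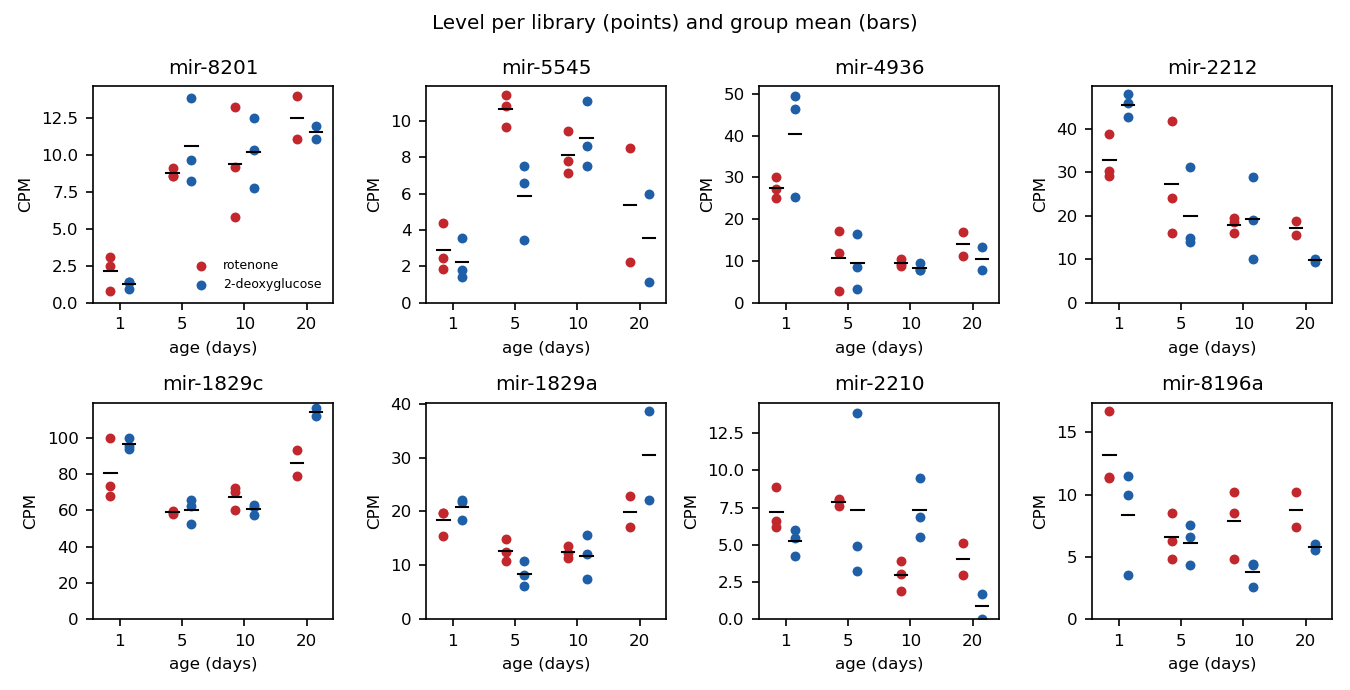
CPM of 8 late hairpins in each library (points) with the group mean (bars) at 4 ages, rotenone left of 2-deoxyglucose. mir-8201 lies at 3.08 CPM or less in all day 1 libraries and at 5.84 CPM or more in all later ones. mir-1829c is lowest at day 5 and day 10.

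mir-4936 and mir-2212 were each called lower in 5 of the 6 contrasts with day 1. mir-4936 lies on chromosome III at 3249151 to 3249260, plus strand, in no protein-coding gene. Rotenone worms had 30.0, 27.2 and 25.1 CPM at day 1, 2.86, 11.8 and 17.1 CPM at day 5, 9.19, 10.4 and 8.75 CPM at day 10, and 17.0 and 11.1 CPM at day 20. 2-deoxyglucose worms had 25.4, 46.4 and 49.6 CPM at day 1, 16.5, 3.29 and 8.62 CPM at day 5, 7.78, 7.76 and 9.39 CPM at day 10, and 13.3 and 7.72 CPM at day 20. No later library reached a day 1 library of the same compound.

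The log2 change of mir-4936 in rotenone worms was -1.46 ± 0.38 at day 5 and -1.51 ± 0.42 at day 10 (edgeR adjusted p = 0.00365 and 0.00452), and -0.96 ± 0.43 at day 20, which did not pass (0.0524). In 2-deoxyglucose worms it was -1.88 ± 0.41, -2.21 ± 0.40 and -1.93 ± 0.46 at day 5, 10 and 20 (edgeR adjusted p = 7.30e-04, 5.36e-05 and 8.16e-04). This hairpin also differed by sequencing lane (edgeR F test of lane, adjusted p = 0.0472). With lane as a factor the change in rotenone worms was larger at all 3 ages, -2.40, -3.04 and -2.38, and day 20 then passed (edgeR adjusted p = 0.00139), while in 2-deoxyglucose worms it was -1.57 at day 5, and -0.70 and -0.50 at day 10 and 20, neither of which passed (edgeR adjusted p = 0.318 and 0.534).

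mir-2212 lies on chromosome X at 16207829 to 16207888, plus strand, 67 bases from mir-1819. Under rotenone it had 29.2, 39.0 and 30.3 CPM at day 1, 16.0, 24.2 and 41.9 CPM at day 5, 19.4, 16.1 and 18.5 CPM at day 10, and 18.7 and 15.5 CPM at day 20. Under 2-deoxyglucose it had 48.0, 42.7 and 46.0 CPM at day 1, 31.2, 14.8 and 14 CPM at day 5, 19.0, 28.8 and 10.0 CPM at day 10, and 9.98 and 9.43 CPM at day 20. From day 10 onward all libraries lay below those of day 1.

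The deepest fall of mir-2212 was at day 20 in 2-deoxyglucose worms, -2.23 ± 0.43 on the log2 scale (edgeR adjusted p = 7.47e-05), after -1.11 ± 0.33 at day 5 and -1.34 ± 0.32 at day 10 (0.00748 and 9.36e-04). In rotenone worms it was -0.34 ± 0.30 at day 5, which did not pass, -0.87 ± 0.34 at day 10 and -0.94 ± 0.37 at day 20 (edgeR adjusted p = 0.0334 and 0.0294). The 2 rotenone calls ended in 5 and 4 of the 32 alternatives, among them the omission of any of the day 10 libraries or of either day 20 library. In 2-deoxyglucose worms the day 10 call ended with lane as a factor (-0.61, edgeR adjusted p = 0.217), and the day 5 call without its library 3 (-0.88, 0.0559). Its neighbour mir-1819 had 32 counts, 18 at day 1, 7 at day 5, 6 at day 10 and 1 at day 20, and did not pass the low-count filter. Without that filter its change at day 20 against day 1 in 2-deoxyglucose worms, 0 against 10 counts, was called (edgeR adjusted p = 0.0383).

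mir-8196a, on chromosome X at 2328994 to 2329124, plus strand, overlaps the long non-coding RNA gene linc-154. It averaged 6.56 ± 1.88 CPM in rotenone worms of day 5 against 13.2 ± 3.06 CPM at day 1 (log2 -1.05 ± 0.34, edgeR adjusted p = 0.0156, n = 3 each). In 2-deoxyglucose worms it averaged 3.803 ± 1.05 CPM at day 10 against 8.36 ± 4.24 CPM at day 1 (log2 -1.16 ± 0.44, edgeR adjusted p = 0.0253, n = 3 each). The 2-deoxyglucose libraries of day 1 were spread from 3.54 to 11.5 CPM and overlapped those of day 10. The 2-deoxyglucose call ended in 7 of 32 alternatives, DESeq2 and limma-voom among them, and the rotenone call in 3 of 31. The call over all ages (adjusted p = 0.0353, edgeR) ended in 8 of 32, with adjusted p up to 0.123. Its lettered relative mir-8196b had 38 counts against 225.

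mir-2210, on chromosome IV at 10914618 to 10914678, plus strand, overlaps an exon of ZK593.2. It was nearly absent in 2-deoxyglucose worms of day 20, with 0 and 2 counts, against 13, 6 and 6 counts in 2-deoxyglucose worms of day 1. The fitted log2 change was -2.35 ± 0.81 against day 1 and -2.82 ± 0.78 against day 10 (edgeR adjusted p = 0.0149 and 0.00568). Without the day 20 library that held no count these became -1.54 and -2.02 and neither was called (edgeR adjusted p = 0.145 and 0.0762). The first call also ended with DESeq2 and with lane as a factor (0.0625 and 0.231). In rotenone worms it averaged 2.95 ± 1.00 CPM at day 10 against 7.23 ± 1.47 CPM at day 1 (SD, n = 3 each), and that call (log2 -1.24 ± 0.51, edgeR adjusted p = 0.0434) ended in 20 of 32 alternatives. mir-2210 was not lower at every later age. In 2-deoxyglucose worms the fitted log2 change against day 1 was 0.59 at day 5 and 0.46 at day 10, and in rotenone worms 0.16 at day 5, none of them called.

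The mir-1829 relatives fell by day 5 in 2-deoxyglucose worms and were higher again at day 20. mir-1829c averaged 80.4 ± 17.0, 59.0 ± 0.966, 67.6 ± 6.45 and 86.1 ± 9.86 CPM in rotenone worms of day 1, 5, 10 and 20 (SD, n = 3, 3, 3 and 2). The 2-deoxyglucose means were 96.5 ± 3.01, 60.3 ± 6.77, 60.9 ± 2.84 and 114.4 ± 2.88 CPM at the same ages. The 2-deoxyglucose libraries of day 5 and day 10 lay between 52.7 and 65.7 CPM, and those of day 1 and day 20 at 94.1 CPM or more, with no overlap.

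mir-1829a, a lettered relative of mir-1829c, lies apart from it on chromosome X at 15588311 to 15588370, minus strand, in an intron of gas-1, which encodes a subunit of complex I. It averaged 18.3 ± 2.53, 12.7 ± 2.06, 12.4 ± 1.14 and 20.0 ± 4.16 CPM in rotenone worms of day 1, 5, 10 and 20. The 2-deoxyglucose means were 20.8 ± 2.06, 8.36 ± 2.35, 11.7 ± 4.02 and 30.4 ± 11.6 CPM at the same ages (SD, n = 3, 3, 3 and 2). The 2 hairpins kept the same order in all 22 libraries, with 2.91 to 10.3 counts of mir-1829c (median 4.95) for each count of mir-1829a. The third relative, mir-1829b, is one of the 14 left out.

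In 2-deoxyglucose worms mir-1829c fell by 0.66 ± 0.15 at day 5 and by 0.66 ± 0.14 at day 10 on the log2 scale (edgeR adjusted p = 8.41e-04 and 3.77e-04). mir-1829a fell by 1.33 ± 0.32 and by 0.90 ± 0.28 (0.00136 and 0.00664), the day 10 call ending without library 3 of that day (-0.61, edgeR adjusted p = 0.0814). Day 20 against day 10, a contrast added after the levels were seen, rose by 0.90 ± 0.16 for mir-1829c and 1.47 ± 0.30 for mir-1829a (edgeR adjusted p = 8.79e-05 and 4.06e-04), and both calls stood in all 32 alternatives. In that contrast 4 of the 15 were called (background 46.1%), 3 higher (21.3%) and 1 lower (24.8%), the others being mir-2210, which was lower, and mir-4816, which was higher (1.11 ± 0.39, 0.0261). mir-4816, in an intron of T09B4.2 on chromosome I, had 15.5 and 12.01 CPM at day 20 against 7.78, 3.33 and 6.88 CPM at day 10, and its call ended without the first day 20 library (0.96, edgeR adjusted p = 0.146) and in 3 other alternatives. In rotenone worms the day 5 fall of mir-1829c was called (-0.43 ± 0.14, edgeR adjusted p = 0.0156). It ended with lane as a factor (-0.38, 0.113) and with a near-identical pair of hairpins removed (-0.33, 0.0829). For mir-1829a no rotenone contrast passed. Of the 15, 0 were called in rotenone worms for day 20 against day 10 (background 41.1%, edgeR). There 3 had an unadjusted edgeR p under 0.05 (48.9% of all 141), and DESeq2 and limma-voom called 0. The test of an age change that differed between compounds gave adjusted p = 0.191 for mir-1829c and 0.161 for mir-1829a.

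mir-1820, the most abundant late hairpin, was called higher in rotenone worms of day 10 and day 20 and also moved with the sequencing lane named in the labels. In rotenone worms it had 102.2, 94.6 and 69.9 CPM at day 1, 66.8, 142.4 and 298.7 CPM at day 5, 338, 240.5 and 144.9 CPM at day 10, and 325.2 and 203.2 CPM at day 20. In 2-deoxyglucose worms it had 86.3, 169 and 140.9 CPM at day 1, 267.2, 85.6 and 189.5 CPM at day 5, 252.2, 196.3 and 90.7 CPM at day 10, and 222.8 and 190.4 CPM at day 20. Libraries of the same group differed up to 4.47-fold, as at day 5 in rotenone worms.

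By lane, the median of mir-1820 was 298.7 CPM in lane 1, 253.9 in lane 2, 144.9 in lane 3, 206.2 in lane 4, 190.4 in lane 5, 69.9 in lane 6 and 114.4 in lane 7. The F test of lane gave adjusted p = 1.07e-05 (edgeR), and 24 of all 141 hairpins were called in that test. Without lane, the change against day 1 in rotenone worms was 1.45 ± 0.52 at day 10 and 1.58 ± 0.56 at day 20 on the log2 scale (edgeR adjusted p = 0.0277 and 0.0210). The 2-deoxyglucose changes of 0.51, 0.45 and 0.66 were not called, nor was the test over all ages (adjusted p = 0.144). With lane as a factor the test over all ages passed (edgeR adjusted p = 1.70e-05). The changes were then 0.84 ± 0.21, 1.23 ± 0.26 and 1.21 ± 0.29 in 2-deoxyglucose worms at day 5, 10 and 20 (edgeR adjusted p = 0.00305, 6.21e-04 and 0.00122). In rotenone worms they were 0.64 ± 0.27 at day 10 and 1.12 ± 0.29 at day 20 (edgeR adjusted p = 0.0580 and 0.00238). Without the first day 20 library the rotenone change of day 20 was 1.20 and was not called (edgeR adjusted p = 0.152), nor was it without the third day 1 library (1.42, 0.0636).

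**Figure D5:**
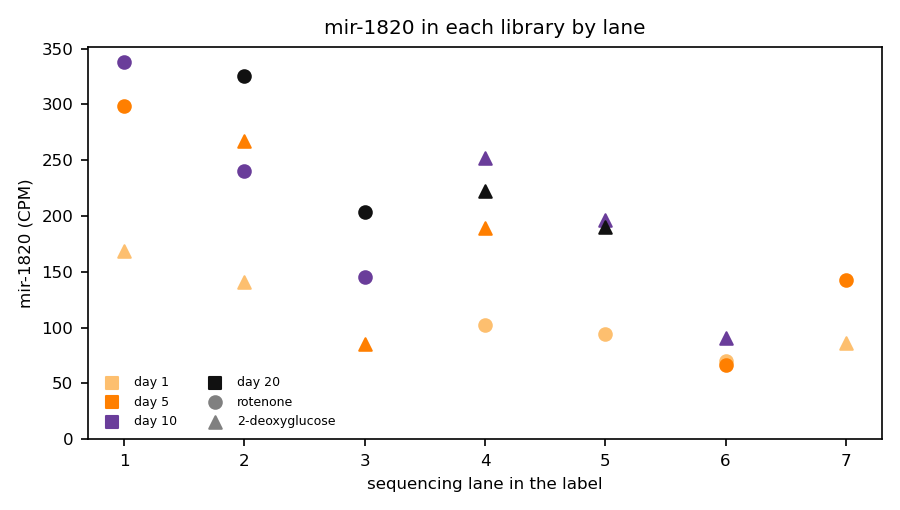
CPM of mir-1820 in each of the 22 libraries by the sequencing lane in its label, coloured by age, with circles for rotenone and triangles for 2-deoxyglucose. The lane medians run between 69.9 CPM in lane 6 and 298.7 CPM in lane 1, and within lanes 1, 2, 4, 5 and 7 the day 1 library is the lowest.

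Besides mir-1820, mir-1822 and mir-4937 were called higher at day 10 in rotenone worms. mir-1822, in an intron of ZK84.2 on chromosome II, had 29.6, 19.9 and 9.73 CPM at day 10 against 12.2, 11.1 and 9.67 CPM at day 1 (log2 0.86 ± 0.30, edgeR adjusted p = 0.0192). mir-4937, on chromosome IV, had 18.4, 20.8 and 14.6 CPM at day 10 against 12.97, 2.47 and 10.1 CPM at day 1 (log2 1.09 ± 0.42, edgeR adjusted p = 0.0328). The libraries overlapped for mir-1822 but not for mir-4937. Neither call stood with lane as a factor (0.76 and 0.09, edgeR adjusted p = 0.172 and 0.933) or with scaling by total counts. In the test over all ages mir-4937 did not pass without lane (edgeR adjusted p = 0.0640) and passed with lane as a factor (0.0238). The mir-1822 call also ended without the first day 10 library (0.53, edgeR adjusted p = 0.160), and the mir-4937 call without the second day 1 library (0.67, 0.149).

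None of the tested late hairpins passed the test between rotenone and 2-deoxyglucose worms, but the choice of hairpins bears on this. Of the 14 left-out late hairpins, 7 were called over all ages and 7 for an age change that differed between compounds. At day 1, 5, 10 and 20 it was 5, 2, 0 and 1 of the 14. The backgrounds below include these 14. Of the 15, 0 were called in the test over all ages (background 24.1%), 0 at day 1 (background 11.3%), 0 at day 5 (background 9.93%), 0 at day 10 (background 5.67%) and 0 at day 20 (background 0.709%), by edgeR. Over all ages 1 had an unadjusted edgeR p under 0.05, against 39% of all 141. By age it was 1 at day 1 (20.6% of all 141), 0 at day 5 (20.6%), 3 at day 10 (24.8%) and 2 at day 20 (17.7%). DESeq2 and limma-voom called 0 in each of these tests. The age change differed between compounds for 0 of the 15 (background 18.4%, edgeR), with 1 at an unadjusted p under 0.05 (35.5% of all 141). DESeq2 called 0 and limma-voom 1, which was mir-2210. Summed over ages, mir-1820 had 160.8 per 1000000 counts in rotenone worms (2525 counts) and 167.4 in 2-deoxyglucose worms (2145 counts).

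The 2 hairpins with the smallest adjusted p between the compounds at a single age were mir-1822 and mir-5551. mir-5551, on chromosome IV at 9757508 to 9757616, plus strand, had 17.0, 10.5 and 10.99 CPM in rotenone worms of day 1 against 20.8, 16.4 and 24.8 CPM in 2-deoxyglucose worms of day 1. The libraries overlapped, and the log2 difference was -0.74 with a 95% interval of -1.28 to -0.20 (edgeR adjusted p = 0.0671). At day 10, mir-1822 had 29.6, 19.9 and 9.73 CPM in rotenone worms against 10.4, 7.76 and 10.0 CPM in 2-deoxyglucose worms, a log2 difference of 1.03 (0.37 to 1.70, edgeR adjusted p = 0.0625). Further from the threshold, mir-2210 at day 10 had a log2 difference of -1.30 (-2.40 to -0.20, edgeR adjusted p = 0.156). At day 20, mir-1829c had 79.2 and 93.1 CPM in rotenone worms against 116.4 and 112.3 CPM in 2-deoxyglucose worms, a log2 difference of -0.41 (-0.76 to -0.05, edgeR adjusted p = 0.188). For mir-2210 at day 20 the log2 difference of 1.94 had a wide interval (-0.01 to 3.88, edgeR adjusted p = 0.276), so a large difference was not excluded.

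The 92 untested hairpins, 84 of them detected, held 2241 counts. Their values are given as counts, in most cases with values per 1000000 counts because pooled depth differed between ages. mir-2221, on chromosome X, had 4 counts at day 1, 26 at day 5, 30 at day 10 and 5 at day 20, summed over both compounds, or 0.451, 3.22, 4.29 and 1.09 per 1000000 counts. Of its 6 day 10 libraries, the 3 rotenone libraries had 6 counts each and the 3 2-deoxyglucose libraries had 3, 4 and 5. mir-8189, on chromosome IV, had 27 counts at day 1, against 6, 2 and 1 at day 5, 10 and 20 (3.04, 0.743, 0.286 and 0.218 per 1000000 counts). mir-4811, on chromosome X, had 60 counts at day 1, against 14, 11 and 16 later (6.76, 1.73, 1.575 and 3.49 per 1000000 counts). mir-4812, which lies in piki-1 as mir-1829c does, had 50, 25, 15 and 12 counts at day 1, 5, 10 and 20. Per 1000000 counts this was 5.64, 3.09, 2.15 and 2.62.

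A few scarce hairpins were seen mainly at day 20. mir-2209b, 407 bases from mir-2208a on chromosome IV, had 2 and 5 counts in rotenone worms and 7 and 11 counts in 2-deoxyglucose worms of day 20, against 9 counts in the 18 younger libraries. Its relative mir-2209c, 54 bases from mir-2209a, had 8, 8, 10 and 5 counts at day 1, 5, 10 and 20. mir-1823, on chromosome I, had 12 of its 17 counts at day 20, and mir-4809 had 11 of its 14, with counts in all 4 day 20 libraries in both cases. The reverse was seen for mir-8195, which overlaps an exon of tsr-1 on the opposite strand, and for mir-8210, with 30 and 33 counts in younger worms and 0 counts at day 20, where a count of 0 allows up to 3 counts.

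When all late hairpins with a count were tested without the low-count filter, 21 of 99 were called for age by edgeR (background 58.2% of the 232 hairpins with a count). In rotenone worms 10 were called at day 5 (background 25.9%), 7 at day 10 (29.3%) and 11 at day 20 (41.4%), each against day 1. In 2-deoxyglucose worms it was 8 at day 5 (27.2%), 12 at day 10 (40.9%) and 15 at day 20 (41.8%). For day 20 against day 10 it was 2 in rotenone worms (25%) and 11 in 2-deoxyglucose worms (30.6%). Beyond those named above, the 21 called for any age include mir-2209b (adjusted p = 2.20e-06, edgeR), mir-2221 (1.35e-05), mir-5594 (7.99e-04), mir-4809 (0.00139), mir-1823 (0.00149), mir-8189 (0.00193), mir-4811 (0.00238) and mir-5546 (0.00702). mir-5594, in an intron of K12D12.4, had 23, 30, 50 and 32 counts at day 1, 5, 10 and 20, or 2.59, 3.71, 7.16 and 6.99 per 1000000 counts. mir-5546, in an intron of arx-1, a gene for an Arp3-like actin nucleator, had 11, 24, 14 and 21 counts at the same ages. Per 1000000 counts this was 1.24, 2.97, 2.00 and 4.58, highest at day 20.

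Lettered relatives were unequal in most cases, while numbered copies had similar counts, very few in all but the mir-5592 pair. The mir-8186 copies, which overlap on opposite strands of chromosome II as the mir-5592 pair does on X, had 6 and 7 counts. mir-2217a had 12 counts and its 4 relatives mir-2217b-1 to mir-2217b-4 had 1, 2, 1 and 3. mir-2218b had 11 counts against 1 for mir-2218a, mir-4810a had 39 against 7 for mir-4810b, and mir-4923b had 10 against 1 for mir-4923a. The mir-5593 copies had 8 and 9, mir-4922-1 had 1 against 0 for mir-4922-2, and mir-1832b had 10. How reads shared between copies were counted is not given in the sources used here. Some late hairpins overlap other small RNA genes: mir-8203 (54 counts) lies opposite mir-786, and mir-8198 (163 counts) spans 3 annotated piRNAs, so counts there may include reads from the other gene.

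All 12 marker microRNAs used to check the tissue, those of embryos (mir-35 to mir-42), muscle (mir-1), intestine (mir-60), glia (mir-228) and neurons (lsy-6), were present in all 22 libraries, lsy-6 with 5 to 47 counts per library. Their part in the age changes of late hairpins was not tested.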

How the data were processed

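Small RNA of whole worms was sequenced after preparation with the TruSeq small RNA kit, per the labels' protocols. The submitters' processing notes name SAMtools 1.3.1-9, BWA 0.7.12-r1039, Trimmomatic 0.36 and CASAVA 1.8.4. Sources used here give neither the genome build nor how strand and reads with several matches were handled. The authors deposited whole-number read counts per hairpin, not normalized, with 1 column per library. Groups, ages and lanes were read from the labels.

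The counts were fitted with edgeR 4.0.16 in R 4.3.3 (quasi-likelihood F tests, robust, TMM scaling, 1 term per group, all 22 libraries). Hairpins were kept by edgeR's filterByExpr by group (minimum count 10, minimum total 15), which left 141 of 250, and p-values were adjusted over all 141 by Benjamini-Hochberg at 0.05. CPM values use the TMM-scaled library sizes, and values per 1000000 counts, given for pooled libraries, use the plain totals. Standard errors and 95% intervals come from the same fit. Detection at equal depth is the hypergeometric expectation at the smallest library total. Places come from the Ensembl annotation of WBcel235, matched by name. On simulated counts for day 20 against day 1 in rotenone worms, over 141 hairpins, 18 of 20 hairpins changed 2-fold and 19 of 20 changed 4-fold were called, and 0 of 101 unchanged ones. The simulation gave every hairpin the same dispersion and no lane effect. Changed hairpins were drawn from the more abundant ones, and mir-2210 and mir-5545 were too scarce to be drawn. It therefore does not measure recovery for scarce late hairpins. Alternatives were DESeq2 1.42.0, limma-voom (limma 3.58.1), other scalings, no low-count filter, lane as a factor, removal of near-identical hairpins and the omission of each library. Library numbers within a group follow record order.

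The hairpins, the lists and the tests were chosen with earlier results of these data known. Hairpins are named if they are among the 10 with most counts, were called in a test (all if 10 or fewer, otherwise the 10 clearest), are copies or lettered relatives, lie among the 3 nearest the filter on each side, or are the mirtron mir-1019. Other scarce hairpins, and the contrast of day 20 against day 10, were chosen after their values were seen. Grouping by shared seed was not made, since no sequence was used here.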

Additional observations from a re-analysis of the deposited data

How the results depend on the processing

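Of the 44 calls of single late hairpins, 23 stood in every alternative and 0 reversed. Without the low-count filter, where 99 late hairpins are tested, the number called was 10, 7 and 11 for day 5, 10 and 20 in rotenone worms, and 8, 12 and 15 for day 5, 10 and 20 in 2-deoxyglucose worms. It was 2 and 11 for day 20 against day 10 in rotenone and 2-deoxyglucose worms, and 21 for any age. More hairpins are tested there by construction, and fewer of all hairpins are called, 58.2% for any age against 85.8% with the filter. Scaling by total counts gave 8 for day 5 in rotenone worms, and TMM computed without the 5 most abundant hairpins and without the mir-35 family gave 9 for day 20 in 2-deoxyglucose worms. With lane as a factor the numbers were 3 and 3 for day 5 and 10 in rotenone worms and 4 for day 10 in 2-deoxyglucose worms. For the compounds over all ages, DESeq2 size factors gave 1 (mir-1829c), and limma-voom gave 1 for an age change that differs by compound (mir-2210). Chosen after seeing the data, the fit without the 6 day 5 libraries gave 1 for the compounds at day 1 (mir-5551), 2 over all ages (mir-1829c and mir-5551) and 1 for the differing age change (mir-2210). Removal of mir-5592-2 gave 1 for the compounds at day 10 (mir-1822) and 2 for day 20 against day 10 in rotenone worms. The cause of these shifts was not tested. Apart from the fit without the filter, the shares of all hairpins called in these alternatives are not given here. Late hairpins seen per library had a median of 41.7 at equal depth and 27 with at least 3 counts, and their median share was 0.156% with the 5 most abundant hairpins out of the total.

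Leaving out each library in turn gave 0 to 1 called for the compounds at day 1 and day 10, 0 to 0 at day 5 and day 20, 0 to 1 over all ages, and 0 to 1 for the differing age change. The number was 4 to 7, 3 to 8 and 1 to 4 for day 5, 10 and 20 in rotenone worms, 4 to 6, 6 to 7 and 4 to 5 in 2-deoxyglucose worms, and 7 to 10 for any age. For day 20 against day 10 it was 0 to 1 in rotenone worms and 2 to 5 in 2-deoxyglucose worms, the 2 without the first 2-deoxyglucose library of day 20. For day 10 in rotenone worms the number was 3 without day 1 library 2 or day 10 library 1, 4 without day 10 library 2 and 5 without day 1 library 3. For day 20 it was 1 without day 20 library 1. A group left with 1 library is assumed to vary like the others. The median number seen per library was 48 to 49 and the median share 0.0775% to 0.0780%. No paired analysis was possible because library numbers within a group follow record order and pair nothing across groups. Depth limits the scarce hairpins: 1 count in a library of the smallest size is more than the pooled level of most of them.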
